A study of Mus musculus with 7 samples.

Results

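Venous-side capillary endothelial cells were the 5621 barcodes, of 31753 endothelial barcodes and 43091 barcodes in all, that carried a venous-side capillary signature without venule, arterial or fenestrated genes. A barcode was endothelial when it had at least 500 genes, at most 15% mitochondrial UMIs (unique molecular identifiers, each counting 1 captured RNA molecule), at least 3 of 8 endothelial genes (Pecam1, Cdh5, Cldn5, Flt1, Ly6c1, Egfl7, Itm2a and Eng) and at most 1 UMI of Vtn, Acta2 and C1qa together. It was a member when at least 2 of the 5 gate genes Slc38a5, Ndnf, Flrt2, Itih5 and Wnt5a were detected and none of the 7 genes Vwf, Ackr1, Lrg1, Plvap, Bmx, Gkn3 and Sema3g. The members were thus selected on the detection of these genes, whose values are given as a description only: Itih5 was detected in 94.2% of the members, Ndnf in 67.3%, Slc38a5 in 60.4%, Flrt2 in 25.9% and Wnt5a in 14.4%.

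In the brain, blood passes from arterioles through capillaries to venules, and endothelial cells change their gene expression gradually along that route. Capillary endothelium forms most of the blood-brain barrier: its cells are joined by tight junctions, take up few vesicles, and carry transporters for glucose, lactate, amino acids and hormones, receptors such as the transferrin receptor that bring in iron, and pumps that return drugs to the blood. Wnt signals from neighbouring cells through beta-catenin maintain this barrier programme, while Notch signalling marks the arterial side and the transcription factor Nr2f2 the venous side. Venules are the main site where leukocytes attach to adhesion molecules and leave the blood.

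The study made 7 single-cell RNA libraries from untreated C57Bl6 mice, of which 3 represent an age of 12 months and 4 an age of 3 months. The tissue was 1 brain hemisphere from which the cerebellum, brain stem and olfactory bulbs had been removed. After collagenase digestion, beads against CD31 (the product of Pecam1) enriched endothelial cells, which were loaded on the 10x Genomics 3' v3.1 chemistry. Single indices and Cell Ranger 4.0.0 go with the older group, dual indices and version 6.1.1 with the younger, so age and library set cannot be told apart. Nothing in the labels says that libraries came from separate animals, and the p-values measure the spread between these libraries.

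At 12 months replicates 1 to 3 gave 306, 491 and 1190 members. At 3 months replicates 1 to 4 gave 849, 769, 1175 and 841. Whole libraries held 8706961 to 44861008 UMIs. The median member held 1118, 2333 and 1697 UMIs in the 12-month libraries and 2841, 4433, 3888 and 4193 in the 3-month libraries, so the 12-month members were shallower throughout, and 12-month replicate 1, with 1366 barcodes under 500 genes, most of all. Library pairs shared 1 to 24 barcodes, and at most 1 between members. Pearson correlations of the members' summed log2 profiles were 0.902 to 0.956 within 12 months, 0.946 to 0.976 within 3 months and 0.882 to 0.956 between the ages. Of 2489 barcodes with a microglia signature, 1 had at least 2 gate genes (0.0402%), against 48.1% of endothelial barcodes. Median UMIs per library were 1076 to 4708 in those microglia and 1082 to 5393 in endothelial cells.

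Detection of gate genes moved with depth. Among the 13003 endothelial cells with none of the 7 excluded genes, 2436 had 0 gate genes, 4946 had 1, 3081 had 2, 1748 had 3, 629 had 4 and 163 had 5, and their median UMIs rose in that order from 1370 to 6025. For that reason comparisons with other endothelial groups used pairs of a comparison cell and a member of the same library whose UMI totals lay within 10%, and cells without such a partner were left out. At the edge of the rule, members with 2 gate genes and clean endothelial cells with 1 had median levels of 425.7 against 376.6 CPM (a gene's UMIs scaled to a common total) for Tfrc, 860 against 565.6 CPM for Car4 and 19.55 against 70.68 CPM for Stmn2. The cells with 1 gate gene were here the 4180 with fewer than 2 of the arterial-side genes named next, a limit not set for members. These groups were not matched on depth. The members are also not free of arterial-side RNA, since 684 of them (12.2%) had at least 2 of the arterial-side genes Tgfb2, Hey1, Efnb2, Unc5b and Gja4.

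Members were compared with 3 other endothelial groups. Mid-capillary cells (1474) had none of the 5 gate genes, 5 arterial-side genes and 7 excluded genes. Arterial-side capillary cells (1023) had at least 2 of the 5 arterial-side genes, none of the 7 excluded genes, and were no members. Venule and vein cells (1475) had at least 2 of Vwf, Ackr1 and Lrg1 and none of Plvap, Bmx, Gkn3 and Sema3g. UMI counts were summed per library and group, gate genes were left out of the tests, and differences are log2 fold changes with their standard error (SE) from edgeR's quasi-likelihood test with Benjamini-Hochberg adjustment over all genes tested. A gene is said to have risen or fallen, or to be higher or lower by the test, at an adjusted p under 0.05. The tested genes were counted in the same cells as the gate genes, and coordinates are those of GRCm38.

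The label was checked against a few selected genes outside the gate, on levels over all cells of each group. Nr2f2, the nuclear receptor that specifies venous identity (chr7:70351944-70366735, minus strand), had a median of 17.9 CPM in arterial-side cells, 18.7 CPM in mid-capillary cells, 58.7 CPM in members and 374 CPM in venule cells. Alpl, the alkaline phosphatase of arterial and capillary brain endothelium, ran the other way, from 251 CPM in arterial-side cells through 140 CPM in mid-capillary cells and 57.6 CPM in members to 6.86 CPM in venules. The members thus lay between mid-capillary and venule cells for these genes. Vcam1, the adhesion molecule of inflamed and large venous endothelium, was at 35.5 CPM in members against 896 CPM in venules, far below the level of that group. Most genes of the list of venous and arterial identity regulators did not pass the depth-matched tests. Against mid-capillary cells 2 of 13 tested rose and 1 fell (median 0.06). Against arterial-side cells 1 of 15 rose and 3 fell (median -0.10), and against venules 2 of 15 rose and 6 fell (median -0.17).

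**Figure D1:**
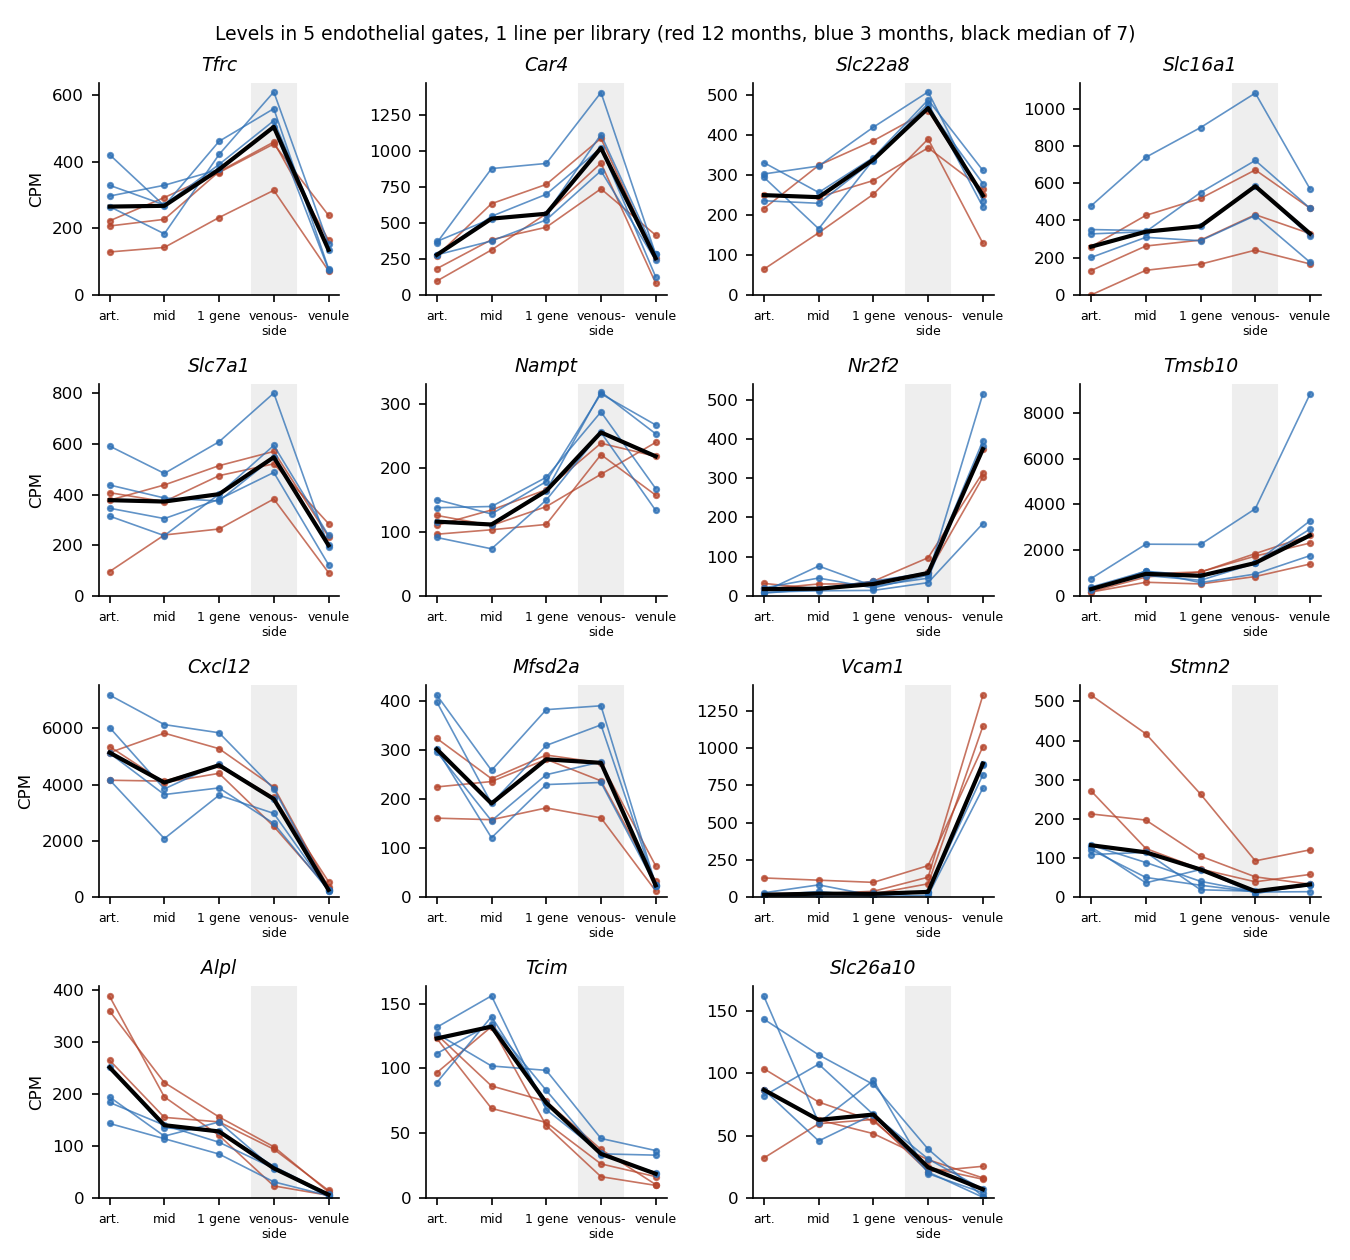
Levels of selected genes in CPM over all cells of 5 endothelial groups, from arterial-side capillary on the left to venule and vein on the right, with 1 line per library (red 12 months, blue 3 months), the median of the 7 libraries in black, and the members shaded. Tfrc, Car4, Slc22a8, Slc16a1, Slc7a1 and Nampt have their highest median in the members, Nr2f2, Tmsb10 and Vcam1 in venules, and Stmn2, Alpl and Slc26a10 on the arterial side.

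Against depth-matched mid-capillary cells, members carried more RNA of many blood-brain barrier transporters, those of iron included, and less of immediate early and arterial-side genes. Of 4081 genes tested, 321 differed (7.87%), 130 higher in the members (3.19%) and 191 lower (4.68%). The matched sets held 29 to 514 cells a side per library, and the median log2 difference over all genes was -0.01. The transporter, receptor, Wnt and matrix genes named here differed with the same sign in all 7 libraries, except Ftl1, Slc9a3r2, Slc38a2, Axin2 and Nr2f2. The naming rule took only genes with the same sign in every library, so for the genes it took this agreement is no added support.

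Among iron genes, the importer Tfrc and the exporter Slc40a1 rose and the ferritin chains fell. Tfrc, the transferrin receptor (chr16:32608920-32632794, plus strand), ranged from 340.6 to 682 CPM in matched members (median 547.7) and from 123 to 330.9 CPM in mid-capillary cells (median 256.2). The ranges did not overlap, and the difference was 1.04 ± 0.12 (log2, SE, 7 libraries, adjusted p = 6.37e-08). Slc40a1, the iron exporter ferroportin (chr1:45908068-45926523, minus strand), rose by 0.95 ± 0.12 (adjusted p = 4.97e-07), from a median of 249.8 to 546.9 CPM. The insulin receptor Insr (0.64) and the insulin-like growth factor receptor Igf1r (0.52) rose too, whereas the ferritin chains Fth1 (-0.42) and Ftl1 (-0.43), which store iron, fell. Of the 8 tested genes of the list of receptor-mediated uptake and iron genes, 4 rose and 2 fell, with a median of 0.43. Fth1 lost its call without 3-month replicate 1, and Ftl1 without 12-month replicate 2 or 3-month replicates 1, 2 or 3.

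Transporters of organic anions, hormones and lactate were mostly higher. Slc22a8, the organic anion transporter OAT3 (chr19:8591254-8611835, plus strand), ranged from 382.1 to 652.5 CPM in members against 134.9 to 324.2 CPM in mid-capillary cells, again without overlap, a difference of 0.96 ± 0.12 (adjusted p = 8.54e-07). Slc16a1, the monocarboxylate carrier MCT1, stood at a median of 624.6 CPM (249.8 to 1254) against 339.3 CPM (146.8 to 647.3), a difference of 0.86 ± 0.11 with overlapping ranges (adjusted p = 8.54e-07). Slco1a4 (0.63), Slco2b1 (0.63) and Slco1c1 (0.47), carriers of bile salts, steroid conjugates and thyroid hormone, rose, as did the glucose transporter Slc2a1 (0.42) and the zinc carrier Slc39a10 (0.53). In this list of solute carriers for glucose, lactate, hormones and organic anions, 8 of 12 tested rose and 1, the scaffold Slc9a3r2 (-0.36), fell, with a median of 0.47. Slc9a3r2 kept its call in 11 of 19 other settings, and Slc2a1 lost its call without 3-month replicates 2 or 3.

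Amino acid carriers followed in part. Slc7a1, which carries cationic amino acids (chr5:148327410-148399904, minus strand), was at 573.2 CPM (389.9 to 1079) against 368.7 CPM (206.3 to 485.5), a difference of 0.70 ± 0.11 (adjusted p = 2.79e-05). Slc7a5, the large neutral amino acid carrier LAT1, rose by 0.59 ± 0.11 (adjusted p = 0.00033) and the glutamine carrier Slc38a3 by 0.47, while its relative Slc38a2 fell by 0.43. That made 3 of 7 tested amino acid carriers higher and 1 lower. Slc38a3 lost its call without 12-month replicate 3, with at least 1000 genes per barcode and without matching. Slc38a2 lost its call without 12-month replicate 3 or 3-month replicate 3. Of 4 ABC transporters tested, the drug efflux pumps Abcb1a (P-glycoprotein, 0.41, adjusted p = 0.0155) and Abcg2 (0.34, adjusted p = 0.0462) rose by small amounts. The call for Abcg2 held in 9 of 19 other settings, and that for Abcb1a was lost without depth matching.

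Junction and Wnt genes moved less. Ocln (occludin, 0.40, adjusted p = 0.0385) and Tjp1 (ZO-1, 0.33, adjusted p = 0.0462) were the 2 of 11 tested junction genes that rose, and neither held in more than 10 of 19 other settings. Among 20 tested Wnt and barrier regulators with a median of 0.26, the 3 that rose are all feedback inhibitors or targets of the pathway. Apcdd1, a membrane Wnt inhibitor, stood at a median of 648.2 CPM against 265.9 CPM (0.87 ± 0.12, adjusted p = 6.37e-06). Nkd1, an inhibitor of dishevelled, rose by 0.74 ± 0.15 and Axin2, part of the complex that degrades beta-catenin, by 0.50 ± 0.16 (adjusted p = 0.0478). The venous regulator Nr2f2 rose by 1.13 ± 0.29 (adjusted p = 0.0102), with overlapping ranges of 13.5 to 90.8 and 11.9 to 80.9 CPM, and the forkhead factor Foxc1 by 0.46. Axin2 kept its call in only 4 of 19 other settings. Nr2f2 lost its call by DESeq2 and without 12-month replicates 1 or 2, and Foxc1 by DESeq2 and without any of the 3 12-month libraries (0.21 to 0.71 over all settings).

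Promoters were read for the named genes as a description, and shared control of Wnt targets and transporters was not tested. RefSeq's GRCm38.p6 promoter table (250 bases before to 50 after a start) held 28 promoters of 21 of the 32 named higher genes and 13 promoters of 11 of the 17 lower genes. The TCF/LEF core CTTTGA, searched on both strands, stood in 5 of the 28 (17.9%) and 1 of the 13 (7.69%), against 16% of all 32851 promoters of the table. The RBPJ core TGGGAA stood in 21.4% and 30.8% against 25.6%, and the nuclear receptor core AGGTCA in 28.6% and 23.1% against 16.3%. The shares rest on few promoters and are descriptions. The promoter of the Wnt gene Nkd1 held none of the 3 motifs. The pair below shows the promoters with the most TCF/LEF letters, chosen for that, with each match in capitals (TCAAAG is the match on the other strand). Both belong to alternative starts: the Slc7a1 window (chr5:148392766-148393065, minus strand) lies within the gene, and the window at its outermost start held none of the 3 motifs, while the Abcb1a window (chr5:8566841-8567140, plus strand) lies upstream of the GENCODE gene, which begins at 8660077.
Slc7a1: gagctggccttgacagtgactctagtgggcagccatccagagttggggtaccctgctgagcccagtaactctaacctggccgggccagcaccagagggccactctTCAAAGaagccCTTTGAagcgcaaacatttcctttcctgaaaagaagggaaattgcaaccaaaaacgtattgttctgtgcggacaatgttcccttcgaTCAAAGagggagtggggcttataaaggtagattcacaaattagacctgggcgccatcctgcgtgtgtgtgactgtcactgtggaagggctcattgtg
Abcb1a: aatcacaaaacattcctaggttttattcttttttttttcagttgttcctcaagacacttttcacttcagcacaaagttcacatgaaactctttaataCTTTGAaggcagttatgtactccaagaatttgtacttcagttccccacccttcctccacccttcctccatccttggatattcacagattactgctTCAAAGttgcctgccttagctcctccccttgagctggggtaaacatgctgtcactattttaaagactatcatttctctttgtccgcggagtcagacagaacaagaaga

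Car4, a membrane carbonic anhydrase of capillaries (chr11:84957786-84966044, plus strand), ranged from 727.3 to 1509 CPM in members (median 956.1) against 277.7 to 884.7 CPM in mid-capillary cells (median 536.8). Its ranges overlapped between libraries, but it was higher within each, by 0.94 ± 0.13 (adjusted p = 2.52e-06). The zinc and manganese importer Slc39a8 rose by 0.69 and Ddah1, which clears inhibitors of nitric oxide synthase, by 0.78. Other large rises were in Lmntd1 (1.29), Nampt (1.16), the rate-limiting enzyme of NAD salvage, Fam13a (1.15), Net1 (1.10), Qsox1 (0.99) and the endolysosomal channel Tpcn1 (0.94). Of 13 tested matrix genes 2 rose, fibronectin (Fn1, 0.50) and the laminin receptor subunit Itga6 (0.42). Bmpr2 (0.44) and Tgfbr3 (0.53) rose among 13 TGF-beta and BMP genes, but Tgfbr3 kept its call in only 7 of 19 other settings. Qsox1 lost its call without 12-month replicate 2, without 3-month replicate 1, without matching and against all clean cells with 0 or 1 gate genes. Tpcn1, Insr, Bmpr2 and Itga6 lost theirs without matching. Bmpr2 also lost its call with at least 3 gate genes. Itga6 lost its call also without 3-month replicates 1, 2 or 4 (0.26 to 0.77 over all settings).

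**Figure D2:**
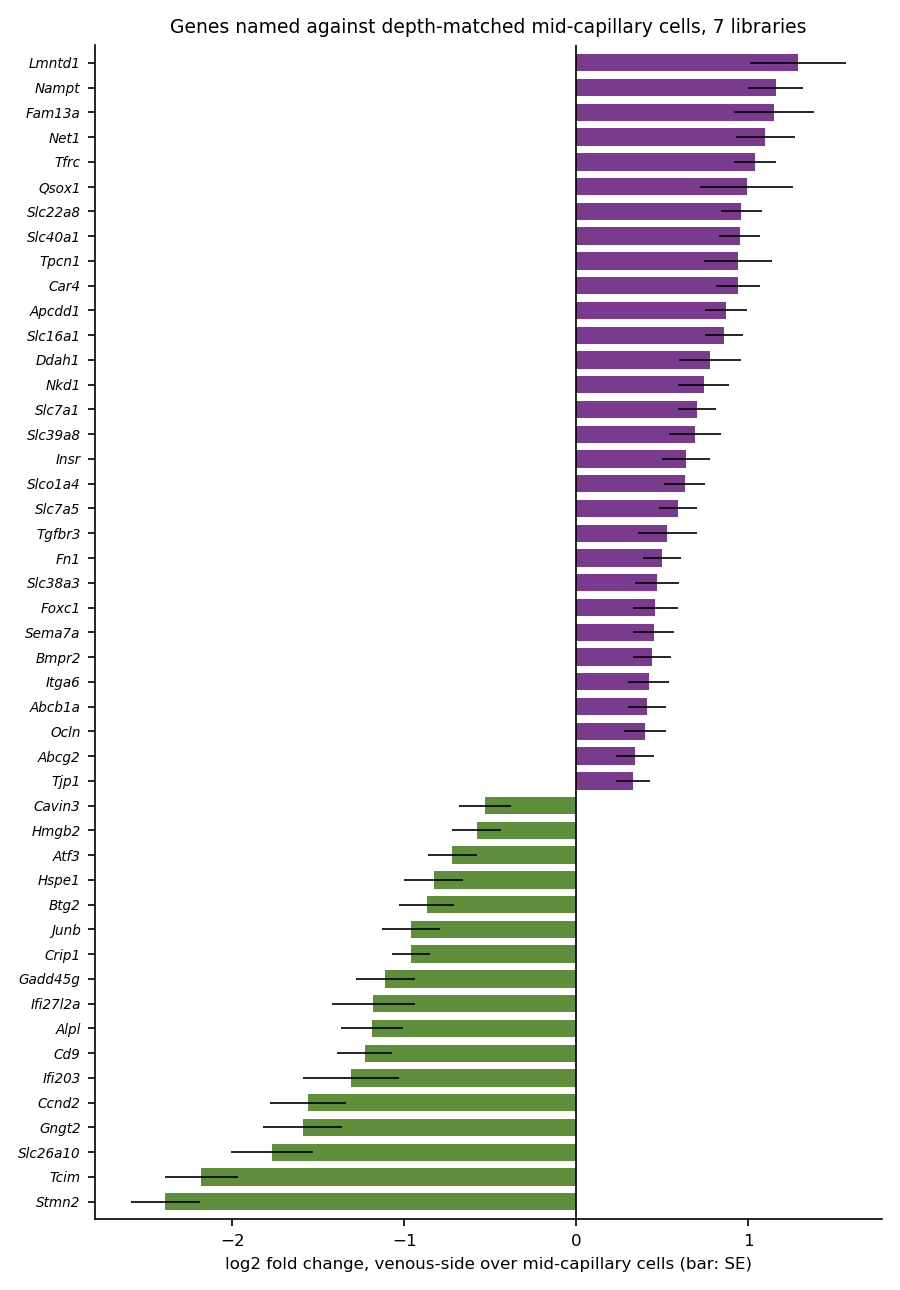
Log2 fold changes of named genes, members over depth-matched mid-capillary cells, from sums over 7 libraries, with bars for the SE. Purple bars are higher in the members, up to 1.29 for Lmntd1, and green bars lower, down to -2.39 for Stmn2.

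The genes that fell include arterial-side and stress genes. Stmn2, a microtubule regulator best known from neurons (chr3:8509360-8561606, plus strand), was at 18.4 CPM (0 to 71.9) in members and 121 CPM (36.7 to 424.5) in mid-capillary cells, a difference of -2.39 ± 0.20 (adjusted p = 1.13e-10). Tcim differed by -2.18, the sulfate carrier family member Slc26a10 by -1.77, the G-protein subunit Gngt2 by -1.59, cyclin D2 (Ccnd2) by -1.56, the tetraspanin Cd9 by -1.23 and Alpl by -1.19. Neither Stmn2 nor Alpl was a gate gene of any group. Alpl lost its call with at least 1000 genes per barcode.

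Immediate early genes, which cells switch on within minutes of a stimulus, were lower in members: 11 of 19 tested fell, with a list median of -0.50. Fos fell by 1.11 ± 0.18 (adjusted p = 3.47e-05), from a median of 1179 CPM (809.2 to 5550) to 658.3 CPM (153.7 to 3369). Junb fell by 0.96, Nr4a1 by 0.90, Fosb by 0.80, Atf3 by 0.72 and Egr1 by 0.71. Growth-arrest genes moved the same way, with 4 of 7 tested lower: Cdkn1c (-1.21), Gadd45g (-1.11), Btg2 (-0.87) and Gadd45b (-0.66). Of 11 heat shock genes 3 fell, Hspe1 (-0.83), Hspa1a (-0.79), whose reads cannot be told apart with certainty from those of its near copy Hspa1b, and Hspb1 (-0.44). Of 21 interferon-response genes 5 fell, among them Ifi27l2a (-1.18), Rsad2 (-0.80) and Ifit3 (-0.62). Of the genes of these 4 lists named with values, Junb, Atf3, Gadd45g, Btg2, Hspe1 and Ifi27l2a were lower in every library, and the others, Fos among them, were not. Ifit3 kept its call in 9 of 19 other settings and Gadd45b in 8 of 17. Rsad2 lost its call without 12-month replicate 2, and Hspb1 without 12-month replicate 3 or 3-month replicates 1, 3 or 4. Atf3 lost its call without matching, and Hspe1 with at least 1000 genes per barcode.

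Other classes of RNA moved with these. Of 83 tested ribosomal protein genes 65 fell (median -0.43), and ribosomal protein UMIs made up 7.33% to 10.4% of the members' UMIs (median 9.08%) against 9.94% to 11.3% in mid-capillary cells (median 10.8%). Erythroid markers, summed over 7 genes, were at a median of 524 CPM (94.4 to 29980) in matched members and 9471 CPM (297 to 96970) in mid-capillary cells. Microglia markers stood at 114 CPM against 360 CPM, and B, T and NK cell markers at 0 against 347 CPM. Barcodes with over 1% of UMIs on red cell, immune and choroid plexus markers numbered 129 of the members (2.30%) and 50 mid-capillary cells (3.39%). Without them 321 genes were again called, 288 of them in both analyses.

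Against arterial-side capillary cells, at the other end of the bed, 557 of 6530 genes differed (8.53%), 251 higher in members (3.84%) and 306 lower (4.69%), and the median over all genes was 0.01. Matched sets held 23 to 283 cells a side. Ribosomal protein shares were closer here (6.5% to 9.84% of arterial-side UMIs), and 10 of 88 ribosomal protein genes rose.

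Most amino acid carriers and metal-handling genes and part of the iron and solute carrier genes were higher in members than on the arterial side. Car4 was at 953.3 CPM (658.6 to 1469) against 281.3 CPM (96.7 to 393.4), without overlap, a difference of 1.79 ± 0.07 (adjusted p = 1.37e-46). Slc16a1 was higher by 1.20 ± 0.08, Tfrc and Slc40a1 by 0.80 each, Slc22a8 by 0.77, Slc38a3 by 0.73 and Slc7a1 by 0.57. In counts, 5 of 7 amino acid carriers rose and 1 fell (median 0.34). Of the uptake and iron genes 4 of 9 rose, and of the metal-handling genes 6 of 7, the last with a median of 0.51. Of 14 solute carriers for glucose, lactate, hormones and organic anions 3 rose (Slc16a1, Slc22a8 and Slco1a4, 0.29) and 2 fell (Slc30a1, -0.28, and Slc9a3r2, -0.50), with a median of 0.07. Nr2f2 was higher by 2.22 ± 0.23 (adjusted p = 2.12e-14), at 60.5 CPM (30.3 to 259.5) against 17.9 CPM (4.32 to 32.2). The actin-binding peptide Tmsb10 (2.17), the ribonuclease Rnase4 (1.88), Hs3st1 (1.68), Icam1 (1.67) and the semaphorin and VEGF-C receptor Nrp2 (1.56) were higher too.

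Genes lower in members against the arterial side included matrix, adhesion and Notch genes. Fbln2, a matrix glycoprotein, was at 1.82 CPM (0 to 13.0) against 59.3 CPM (20 to 129), a difference of -3.55 ± 0.32 (adjusted p = 9.29e-18). Cdh13 (-3.42), Lypd1 (-3.38), Stmn2 (-2.85), Slc26a10 (-2.06), the kinase Tec (-1.77) and Alpl (-1.64) fell as well. Of 9 Notch genes 3 fell, the ligands Jag2 (-0.84) and Dll4 (-0.59) and the receptor Notch1 (-0.29), and the fringe enzyme Mfng rose (0.78). The arterial factor Sox17 fell by 0.70. Caveolar genes fell in 5 of 11 cases (median -0.27), among them Ehd2 (-0.49), Cavin3 (-0.43) and Cav1 (-0.27). Basement membrane genes split, with 3 of 16 higher (Nid1 0.72, Fn1 0.44 and Itga6 0.36) and 5 lower, including Nid2 (-0.67), Hspg2 (-0.44) and Col4a2 (-0.40). Immediate early genes fell in 8 of 23 cases and rose in 2. Notch1, Cav1, Ehd2, Nid1, Nid2 and Hspg2 did not have the same sign in all 7 libraries, and of these Notch1, Cav1, Nid1 and Nid2 lost their calls by DESeq2 and without 2 to 4 single libraries.

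Against venule and vein cells, the next segment downstream, 1516 of 7115 genes differed (21.3%), 663 higher in members (9.32%) and 853 lower (12%), with a median over all genes of -0.00. Matched sets held 34 to 182 cells a side. The venule gate takes deep cells, and the shallower of them found partners: in 12-month replicate 2, 182 of 572 entered, with a median of 3371.5 UMIs against 6725.5 for all, and in 3-month replicate 2, 34 of 58, with 10490 against 19386. The members that entered were deeper than members at large. In 12-month replicate 2 they were 182 of 491, with a median of 3635 UMIs against 2333 for all members. In 3-month replicate 2 they were 34 of 769, with 10499.5 against 4433. Unmatched, 3255 genes were called.

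More transporter, uptake, Wnt and basement membrane genes were higher than lower in members against venule cells, while efflux pump and junction genes mostly did not pass the test. Cxcl12, a chemokine that holds leukocytes at the vessel wall (chr6:117168535-117181367, plus strand), was at 3159 CPM (2160 to 3353) against 292.3 CPM (216.5 to 890), a difference of 3.09 ± 0.16 (adjusted p = 1.76e-12) without overlap. Mfsd2a, the lipid carrier that suppresses vesicle traffic, was higher by 2.87 ± 0.23, at 234.8 CPM against 23.3 CPM. The glutamate carrier Slc1a1 (2.46), the reelin and apolipoprotein E receptor Lrp8 (2.28), Car4 (2.17), the thyroid hormone carrier Slco1c1 (1.86), Slc7a1 (1.72) and Tfrc (1.62) were higher. Among lists, 5 of 7 amino acid carriers rose (median 0.78), 10 of 15 other solute carriers (0.52), 5 of 9 uptake and iron genes (0.58) and 9 of 15 basement membrane genes (0.51). Of 7 ABC transporters none rose and Abca1 (-0.80) fell (median -0.10), with P-glycoprotein (Abcb1a) at 0.05 (adjusted p = 0.739), and of 11 junction genes Ctnnb1 (0.41) and Afdn (0.46) rose and Pard3 (-0.58) fell (median -0.09). Of 22 Wnt and barrier regulators 10 rose and 2 fell: the secreted Wnt inhibitor Notum was at 66.9 CPM against 19.4 CPM (1.60 ± 0.18), Apcdd1 was higher by 1.23, Nkd1 by 1.02, Axin2 by 0.98, the factor Tcf7 by 0.97 and the Wnt7 co-receptor Reck by 0.93, while Tcf7l1 (-1.16) was lower. The Notch ligand Dll4 was higher by 1.98.

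Adhesion, antigen-presentation and inflammatory genes were lower in members than in venules. Vcam1 was at 47.7 CPM (7.06 to 215.8) against 941.5 CPM (730.6 to 1287), a difference of -3.92 ± 0.26 (adjusted p = 6.31e-11) without overlap. The interleukin-1 receptor Il1r1 (-2.98), the prostaglandin synthase Ptgs2 (-4.51), the cholesterol hydroxylase Ch25h (-5.20), the iron-binding lipocalin Lcn2 (-5.14) and Icam1 (-2.15) were lower. Of 15 adhesion and NF-kB genes 13 fell and 1, Cd34 (0.63), rose, with a median of -1.34. Of 14 MHC class I genes 12 fell (median -0.74), including H2-K1 (-1.15) and the near-identical H2-Q6 and H2-Q7, whose split of reads is uncertain. Nr2f2 (-2.47), Nrp2 (-2.51) and Vegfc (-2.73) were lower, and so was Fth1 (-2.17). The adhesion receptor Adgrg6 stood at 1.18 CPM (0 to 7.44) in members and 253.9 CPM (66.1 to 316.2) in venules, and the collagen Col6a6 at 0 CPM (0 to 11.2) against 126 CPM (42.6 to 148.4). Ribosomal protein genes fell in 84 of 90 cases (median -0.65), and made up 12.3% to 17.4% of venule UMIs. Erythroid markers were higher in matched members (median 39930 CPM against 1789 CPM), and so were fibroblast markers (94.8 CPM against 7.48 CPM). Over all members the erythroid median was 14710 CPM. Choroid plexus markers reached 69540 CPM in matched members (median 634 CPM) and 559 CPM in venules (median 225 CPM). With barcodes over 1% of other-cell UMIs left out, 1505 genes were called.

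**Figure D3:**
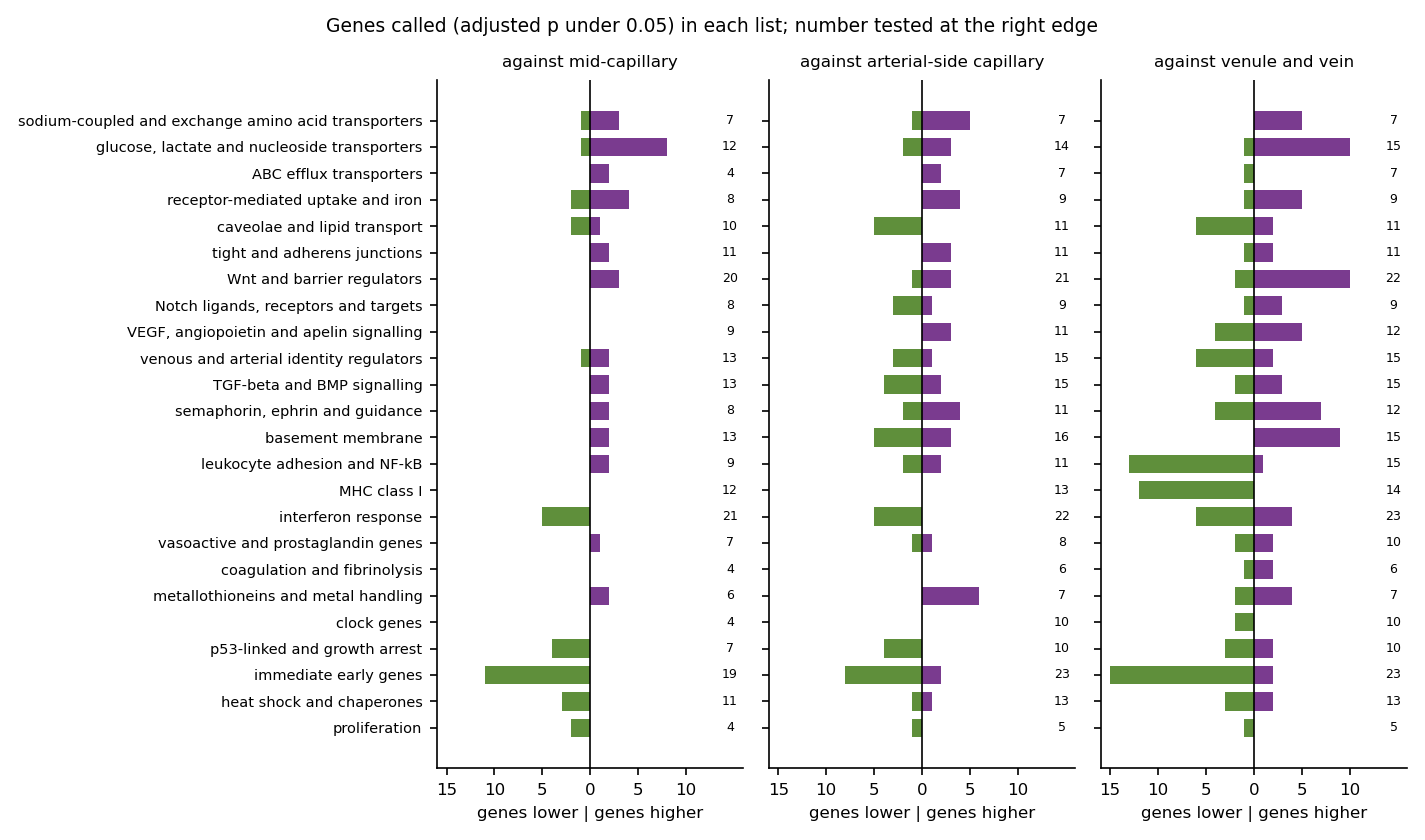
Number of genes higher (purple, to the right) and lower (green, to the left) in members at an adjusted p under 0.05, for 24 gene lists and 3 comparisons, with the number tested at the right edge of each panel. Solute carriers for glucose, lactate, hormones and organic anions reach 8 of 12 higher against mid-capillary cells and 10 of 15 against venules, and immediate early genes 11 of 19 and 15 of 23 lower.

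Members made up a smaller share of endothelial cells at 12 months. To set the share at 1 depth, endothelial cells with at least 2000 UMIs were thinned to 2000 UMIs, which left out 3083, 1349 and 4649 shallower cells at 12 months and 671, 243, 619 and 257 at 3 months. The share was then 8.58% (95% exact Clopper-Pearson interval 6.48% to 11.1%), 10.6% (9.59% to 11.6%) and 15.7% (14.4% to 17.1%) at 12 months. At 3 months it was 24.5% (22.98% to 26.2%), 28.5% (26.9% to 30.1%), 28.3% (27.0% to 29.7%) and 28.7% (27.1% to 30.3%). The intervals cover counting error only. The ages did not overlap: the means were 11.6% ± 3.69 (SD, n = 3) and 27.5% ± 1.99 (SD, n = 4), a difference of -15.9 percentage points (two-sided exact permutation test over 35 splits, p = 0.0286, the smallest this design allows). Without thinning the shares were 8.30%, 9.55% and 15.8% against 23.9%, 22.8%, 23.1% and 25%.

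The difference was smaller with excluded genes allowed. Among thinned cells with at least 2 gate genes, Vwf was detected in 74.7%, 65.6% and 57.8% at 12 months and in 37.7%, 34.7%, 39.0% and 34.3% at 3 months. With Vwf allowed the difference was -12.7 points (exact permutation p = 0.0286), and with all 7 excluded genes allowed it was -4.33 points (43.0% against 47.4%, exact permutation p = 0.143). Among the same cells, Lrg1 was detected in 33.7%, 18.4% and 6.78% at 12 months and in 3.82%, 1.07%, 2.065% and 3.08% at 3 months. Ackr1 was detected in 13.2%, 16.8% and 4.41% against 2.2%, 0.802%, 1.36% and 2.28%. For Plvap, Bmx, Gkn3 and Sema3g the ages overlapped. Apart from Vwf none of the 7 was allowed alone. In microglia of the same libraries Vwf was found in at most 6.12% of barcodes. The rule takes out any cell with Vwf, Lrg1, Ackr1 or another of the 7 genes. The share of members and the detection of these genes thus rest on the same UMIs, and the detection values are a description only.

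**Figure D4:**
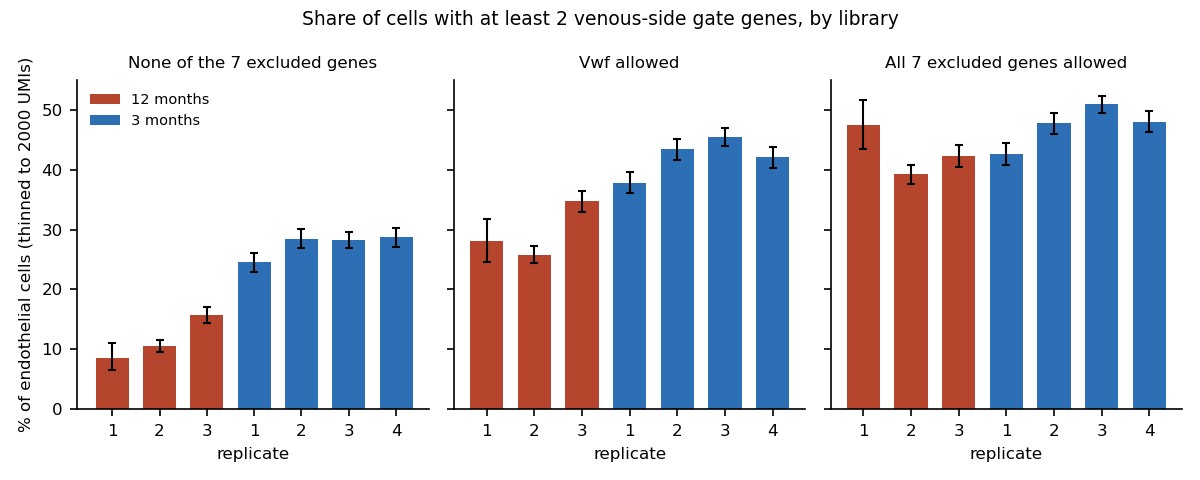
Share of endothelial cells, each thinned to 2000 UMIs, with at least 2 gate genes, per library (red 12 months, blue 3 months), with 95% exact intervals, for the rule as given, with Vwf allowed and with all 7 excluded genes allowed. With the rule as given, the 12-month libraries lie between 8.58% and 15.7% and the 3-month libraries between 24.5% and 28.7%, and the difference is -4.33 points when the 7 genes are allowed.

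Within the members, 145 of 10564 genes differed between the ages (1.37%), 113 higher at 12 months (1.07%) and 32 lower (0.303%), and the median over all genes was -0.01. Values below are listed in the order 12-month replicates 1 to 3, then 3-month replicates 1 to 4. The naming rule took only genes whose ages did not overlap, so for those genes the lack of overlap is no added support. Immediate early, adhesion and flow-responsive genes were among those that rose. After the sums were thinned to the smallest library, which leaves 6594 genes, 6 calls were made, all of them higher at 12 months: Atf3, Egr1, Fosb, Fos, Jun and Klf4.

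Of 23 immediate early genes 11 rose at 12 months and the other 12 did not pass the test, with a list median of 0.88. Fosb was at 1109, 1550 and 1442 CPM against 128.9, 427.9, 237.7 and 181.8 CPM (log2 difference 2.55 ± 0.34, edgeR adjusted p = 0.00175). Fos was at 3409, 3030 and 2055 CPM against 734, 560.6, 522.8 and 609.4 CPM (2.30 ± 0.22, edgeR adjusted p = 9.25e-05). For both genes every 12-month library was above every 3-month library. Atf3, a stress-induced transcription factor (chr1:191170296-191218039, minus strand), was at 1556, 528.5 and 359.5 CPM against 63.8, 52.5, 71.1 and 45.9 CPM (3.84 ± 0.39, edgeR adjusted p = 0.000195), with 12-month replicate 1 far above the rest. Egr1 (2.16), Socs3 (2.08), Jun (1.60), Ier3 (1.45) and Junb (1.43) rose as well. Fam71a (chr1:191162584-191164817, minus strand), the annotated neighbour of Atf3 on the same strand, was at 37.6 to 91.8 CPM against 0 to 0.926 CPM (edgeR adjusted p = 4.73e-06), and the part of reads from Atf3 in this count was not tested.

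The flow-responsive factors Klf2 and Klf4 were both higher. Klf4 was at 1741, 2004 and 1483 CPM against 415.2, 671.4, 629.1 and 731.6 CPM (1.59 ± 0.22, edgeR adjusted p = 0.00183), and Klf2 rose by 1.01, a call lost without 12-month replicate 2 or 3-month replicate 3. The BMP targets Id1 (1.14) and Id2 (1.05) and the inhibitor Smad7 (1.13) rose, 3 of 16 TGF-beta and BMP genes. Id1 stood at 1197, 1711 and 2117 CPM against 937.1, 711, 747.2 and 841.8 CPM, without overlap, but lost its call without any of 4 single libraries, as did Smad7, and Id2 without 12-month replicate 3. Plat, the tissue plasminogen activator, rose by 0.85, from 154.4 to 202.8 CPM at 3 months to 291.3 to 364 CPM at 12 months, a call lost without 12-month replicate 2.

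Adhesion and inflammatory genes were among those that rose. Icam1 was at 321.1, 141.5 and 129.1 CPM against 38.0, 46.4, 45.2 and 24.3 CPM (2.34 ± 0.31, edgeR adjusted p = 0.00145). Vcam1 was at 211.7, 134 and 89.8 CPM against 35.5, 33.3, 30.2 and 12.9 CPM (2.37 ± 0.33, edgeR adjusted p = 0.00219). Ptgs2 was at 83.3, 45.2 and 38.1 CPM against 3.55, 8.58, 7.41 and 7.49 CPM (2.94 ± 0.30, edgeR adjusted p = 0.000195). For all 3 genes the ages did not overlap, as the naming rule required, and 12-month replicate 1, the shallowest library, was the highest. Il1r1 rose by 1.82, and altogether 3 of 14 tested adhesion and NF-kB genes rose (median 0.36). Cdkn1a, which arrests the cell cycle, rose by 1.47 and the chaperone partner Dnajb1 by 1.11. Cdkn1a (0.92 to 1.77 over all settings) and Il1r1 lost their calls without 12-month replicate 2. Icam1, Vcam1, Ptgs2 and Il1r1 were also the genes given above as lower in members than in venules. Whether venule cells without detected Vwf, Lrg1 or Ackr1 entered the members, more so in shallow libraries, was not tested.

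Fewer genes were lower at 12 months. Slc7a5 (chr8:121881150-121907694, minus strand) was at 256.9, 333.5 and 315.9 CPM against 694.4, 978.1, 876.8 and 745.6 CPM, a difference of -1.36 ± 0.20 (edgeR adjusted p = 0.00367), and was the only amino acid carrier of 9 that passed the test. Gja1, the gap junction protein connexin 43, was at 16.7, 15.1 and 18.8 CPM against 53.8, 68.1, 58.1 and 66.4 CPM (-1.76 ± 0.20). The cholesterol exporter Abca1 was at 23.8, 30.1 and 34.6 CPM against 59.0, 88.8, 69.2 and 88.2 CPM (-1.22 ± 0.21). None of these genes overlapped between the ages. Dbp, a clock output gene, was at 9.52, 17.3 and 15.8 CPM against 109.6, 62.1, 92.0 and 40.9 CPM (-2.22), and among 13 clock genes Nr1d1 (-1.05) also fell and Bhlhe40 (1.23) rose. The calls for Dbp and Nr1d1 were lost when any 12-month library was left out, that for Nr1d1 also without 3-month replicates 2 or 3, and those for Bhlhe40 and Abca1 without 12-month replicate 2. The transcription factor Sox4 (-1.82), Ivns1abp (-1.65), Nrep (-1.30) and Auts2 (-1.23) were lower too, with Ivns1abp not called without 12-month replicate 2 and Auts2 without 12-month replicate 3. Of the genes higher in members than in mid-capillary cells, Slc7a5 thus passed the test between the ages, whereas Tfrc and Car4 did not. Tfrc stood at 314, 453.2 and 459.1 CPM against 504.5, 609.3, 523 and 559.1 CPM (-0.33 ± 0.19, edgeR adjusted p = 0.501), and Car4 at 918.2, 739.2 and 1091 CPM against 1410, 864.4, 1117 and 1024 CPM (-0.19 ± 0.21, edgeR adjusted p = 0.773).

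Some markers of other cells and of other vessel segments moved with age as well. Microglia markers, summed over 10 genes, were at 101 to 260 CPM in 12-month members and 43.5 to 78.0 CPM in 3-month members, and 6 of 9 tested were higher at 12 months, among them C1qb (2.78) and Cx3cr1 (2.55), the latter called in 9 of 17 other settings. Of the venous endothelial markers outside the gate, 2 of 5 tested were higher at 12 months (median 1.33), and of the arterial ones 1 of 4 (median 0.96). Summed, the venous markers overlapped, at 1241 to 2771 CPM at 12 months and 1187 to 4003 CPM at 3 months. Of the astrocyte markers 1 of 4 was lower, and the remaining marker lists held no called gene. With barcodes over 1% of red cell, immune and choroid plexus UMIs left out, 184 genes were called between the ages. The count fell to 62 without 12-month replicate 2 and to 90 without 12-month replicate 3, and was 237 without 3-month replicate 1.

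**Figure D5:**
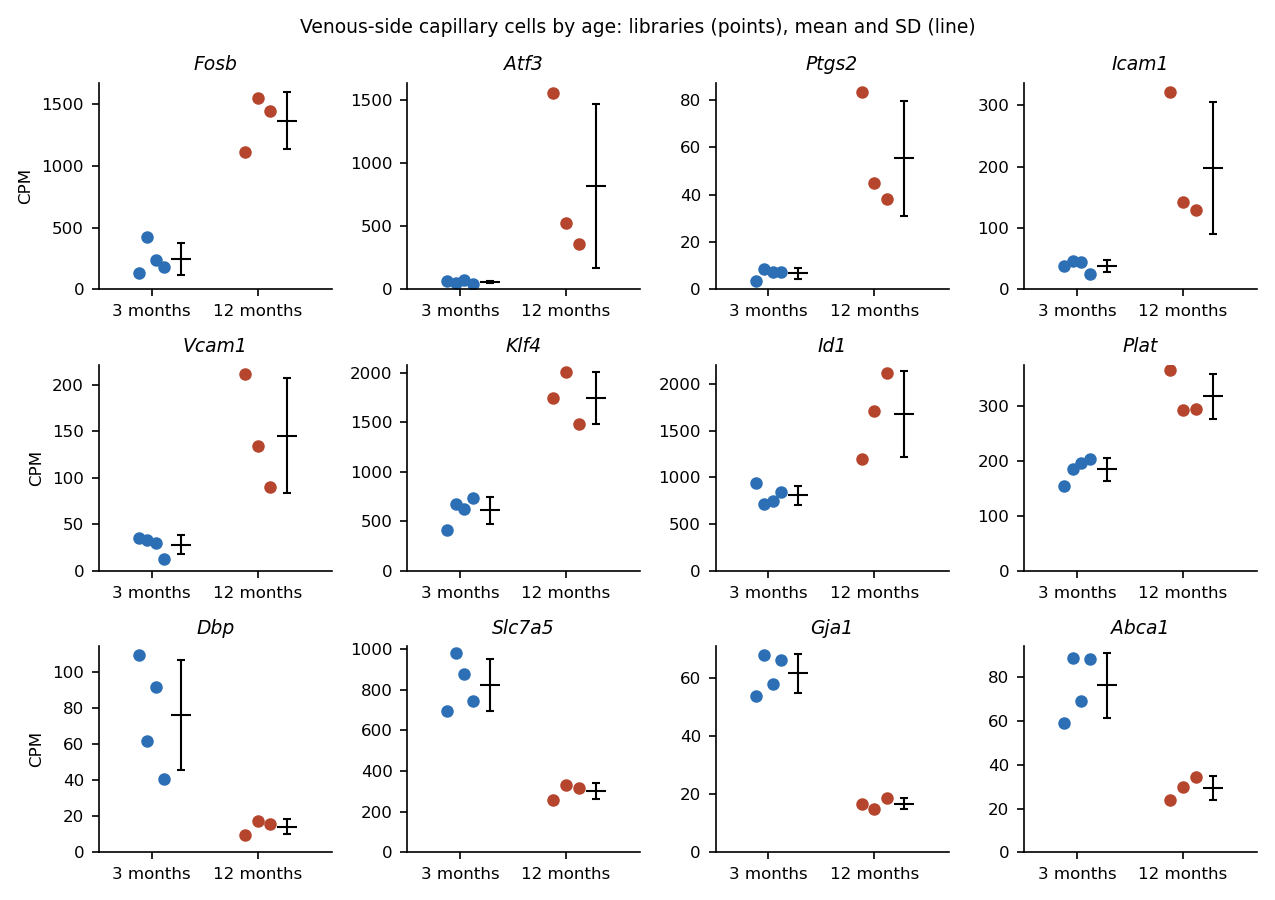
Levels in CPM of 12 genes in the members of each library (blue points 3 months, red points 12 months), with the mean and SD of each age as a line. Fosb, Atf3, Ptgs2, Icam1, Vcam1, Klf4, Id1 and Plat are higher in all 3 of the 12-month libraries than in any 3-month library, and Dbp, Slc7a5, Gja1 and Abca1 lower. The naming rule required this separation of the ages for all 12 genes.

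The difference between the ages was set against that in matched mid-capillary cells with an interaction term. It called 5 of 5345 genes (0.0935%). Fosb was at 1050 to 1279 CPM in 12-month members and 77.7 to 165.4 CPM in 3-month members, against 1192 to 1440 CPM and 148.6 to 852.9 CPM in mid-capillary cells of the same libraries. The interaction was 1.67 ± 0.25 (log2, edgeR adjusted p = 0.000201), so the difference between the ages was larger in the members. It was called in 17 of 18 other settings, and without matching it was not. The other 4 calls were the hemoglobin genes Hbb-bt, Hbb-bs, Hba-a1 and Hba-a2, red cell transcripts with near-identical copies. None of them was called once barcodes over 1% of other-cell UMIs were left out, when Fosb (2.02 ± 0.27), Jund (1.09 ± 0.21) and Klf2 (0.83 ± 0.18) were.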

How the data were processed

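The labels name 7 libraries of CD31-captured mouse brain cells, 3 at 12 months and 4 at 3 months. Each deposited file is a matrix of whole-number UMI counts, not normalized. Cell Ranger wrote these counts, per the file headers in version 4.0.0 for 12 months and 6.1.1 for 3 months. The submitters' processing notes name Cell Ranger, Seurat and mm10. Counting settings and any removal of doublets before deposit are not given in the sources used. Of 32285 gene IDs, 32158 were in the GENCODE M21 annotation that gave coordinates.

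The members and gene lists were chosen with earlier results of these data known. Comparison cells were paired 1 to 1 with members of the same library within 10% of total UMIs, and libraries with at least 20 pairs entered. Sums per library and group entered edgeR 4.0.16 in R 4.3.3 (quasi-likelihood test after TMM scaling and filterByExpr, library as a term except between the ages) with Benjamini-Hochberg adjustment, and the scripts were tested on simulated data. Shares of cells were compared by exact permutation (scipy 1.17.1). Cells were not filtered for doublets in the main analysis. Leaving out the 0.8% per 1000 barcodes with the highest scrublet scores (scanpy 1.11.5) was an alternative, as were DESeq2 1.42.0, other filters, gates and depth limits and each library left out. The settings added after seeing the data were allowing excluded genes or a wider comparison group, and leaving out barcodes with over 1% of UMIs on markers of red cells, immune cells and choroid plexus.

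Named genes passed the test with the same sign in every library (between the ages, without overlap) at a mean of at least 50 CPM in either group. Predicted, mitochondrial, ribosomal protein, hemoglobin and sex-linked genes were passed over. The 12 highest and 12 lowest were taken against mid-capillary cells and the 8 highest and 8 lowest elsewhere (5 and 5 for the interaction), plus up to 3 (elsewhere 2) per list with the smallest p. A few genes that this rule took are left out of the text and figures. Other list members named with a value were chosen after their values were seen. Among members, Pearson correlations were taken over log2 CPM of summed counts. The spread among cells is the squared coefficient of variation beyond counting noise.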

Additional observations from a re-analysis of the deposited data

Results flagged for a closer look

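The share of members among endothelial cells thinned to 2000 UMIs was 24.5% in 3-month replicate 1, apart from the 28.3% to 28.7% of the other 3-month libraries by more than the spread among those. Of 25 groups of 4 values examined in this way, 1 had such a library, and chance gives about 1 in 20.

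Differences between the ages were tested to differ between members and matched mid-capillary cells for 5 genes (edgeR interaction term). The interaction was 1.67 for Fosb, 4.53 for Hbb-bt, 3.10 for Hbb-bs, 3.52 for Hba-a1 and 3.53 for Hba-a2 on the log2 scale. Each was positive, that is, a larger ratio of 12 to 3 months in the members. For Hbb-bt, the matched members held 27.5, 428 and 3461 CPM (lowest, median and highest) at 12 months and 0 to 33.6 CPM at 3 months, so its 12-month libraries differed widely among themselves.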

How the results depend on the processing

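No gene taken by the naming rule changed its direction under any alternative. Of all called list genes, named or not, 3 of 80 against mid-capillary cells, 4 of 104 on the arterial side, 3 of 184 against venules, 0 of 41 between the ages and 3 of 5 in the interaction turned in at least 1 setting. Against venules these were Epha4, Sema6d and Dusp1 with Vwf allowed, and the others were hemoglobin genes without matching or with other-cell UMIs limited to 1%. The interaction reached down to -1.64 for Hbb-bs, also negative with at least 1000 genes per barcode, -0.25 for Hba-a1 and -0.22 for Hba-a2. Against mid-capillary cells, 321 genes were called in the main analysis, 198 by DESeq2, 183 without depth matching and 998 against all clean cells with 0 or 1 gate genes. Leaving out each library gave 187 to 284, with 205 without 12-month replicate 2, 202 without 3-month replicate 1 and 187 without 3-month replicate 3. Of the 49 genes the rule took, 38 kept their call with each library left out and 31 in every other setting. The arterial-side count of 557 was 362 by DESeq2 and 445 to 548 with each library left out. The venule count of 1516 was 962 by DESeq2, 3255 without matching and 1218 to 1470 with each library left out, and all 55 genes the rule took kept their call throughout.

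The age count of 145 was 224 by DESeq2, 482 with no filter on low counts, 56 with a filter at 50 CPM, 256 with Vwf allowed, 6 with sums thinned to the smallest and 62 to 237 with each library left out. With the replicate block it was 64, of which 59 were among the 145. The correlations of same-numbered deviations were 0.092, 0.063 and -0.313. They rest on too few libraries to decide whether replicate numbers pair the samples. The interaction count of 5 was 1 by DESeq2, 12 with no filter, 9 with at least 3 gate genes, 2 with at least 1000 genes per barcode, 13 with Vwf allowed and 3 with other-cell UMIs limited to 1%. It was 4 to 15 with each library left out (15 without 3-month replicate 1). Without matching edgeR called 0, and the main analysis had 433 genes at an unadjusted p under 0.05. The difference in share was -4.33 points with the excluded genes allowed (exact permutation p = 0.143) and -14.38 to -17.94 points with each library left out, designs whose smallest p is 0.0667 or 0.1. The cause of these changes was not tested. Depth limits the 12-month members most, at 306 cells and 420365 UMIs in replicate 1.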

Other observations

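Members also differed among themselves within each library. The squared coefficient of variation of a gene's UMIs per cell, less the part that counting gives, was taken for the 2335 genes with a mean of at least 0.1 UMI per member in every library. Its median was 0.183, and 2.96% of the genes had a median over libraries above 1. Among the genes above 1 in all 7 libraries were Atf3 (5.28, from 1.81 to 7.52), Icam1 (5.10, from 2.42 to 10.5), Gadd45g (4.18), Ccn1 (3.94), Egr1 (2.69), the vasoconstrictor Edn1 (2.31) and Apold1 (1.80), a stress-induced endothelial gene. The interferon-response genes Ifit3 (2.81) and Isg15 (1.41) and the heat shock pair Hspa1b (3.01) and Hspa1a (2.80), which share reads, were above 1 as well. These values describe cells of 1 library at a time and carry no test.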
